A study of Mus musculus with 12 samples.

Results

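The 10 genes of the NRF2 antioxidant pathway and the carbonyl reductases described here were measured in mouse embryonic stem cells depleted of Krr1, whose protein helps to build the small subunit of the ribosome. All 10 were found by symbol among the 23420 gene symbols that both deposited count tables share. They are Nfe2l2 (which encodes NRF2), Keap1, Nqo1, Gclc, Gclm, Hmox1, Srxn1, Txnrd1, Cbr1 and Cbr3. They were chosen by pathway and by their log2 fold changes in these same libraries, so their difference between knockdown and control is given as a description, without p-values. R1 cells, an established mouse embryonic stem cell line, were kept on gelatin in medium with serum, LIF at 1000 U/ml and 2-mercaptoethanol at 100 uM, a thiol reductant that every group received. They were transfected for 48 h with control siRNAs (libraries siGFP, siNC and Lipo, the last of which names no siRNA) or with siRNAs against Krr1 (siKrr1 A, siKrr1 C and siKrr1 D). Per the labels, the 3 Krr1 siRNAs differ from each other, so the spread among the knockdown lysates includes the choice of siRNA, and whether the 3 lysates of a group came from separate cultures is not stated; p-values measure only the spread between these lysates, which may be technical. Each lysate was split for RNA-seq and for ribosome profiling, in which mRNA pieces protected by ribosomes (footprints) are sequenced. This gave 12 libraries, 3 per group and assay.

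NRF2 is a transcription factor that pairs with small MAF proteins on antioxidant response elements and raises the genes of glutathione synthesis, thiol repair and quinone reduction. KEAP1 holds it in check by presenting it to a CUL3 ubiquitin ligase for degradation, and electrophiles or oxidants that modify KEAP1 cysteines let NRF2 accumulate. Control is thus largely at the level of NRF2 protein, which neither assay measured. Carbonyl reductases are NADPH-dependent enzymes that reduce quinones, aldehydes and ketones.

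RNA libraries held 31318772 to 39670139 reads on genes and footprint libraries 21615934 to 28911254. Levels are reads of a gene per 1000000 reads on genes after TMM scaling (CPM). A level is thus a share of its library, not corrected for gene length and so not compared between genes. In such bulk samples fewer cells of a type and less RNA per cell cannot be told apart. Krr1 RNA was at 155, 151 and 160.3 CPM in siGFP, siNC and Lipo and at 33.7, 58.0 and 64.6 CPM in siKrr1 A, C and D, and its footprints stood at 18.9%, 37.5% and 31.4% of their control mean. The cells carried embryonic stem cell markers: 7 of them summed to between 7256 and 7433 CPM of RNA in controls and between 5775 and 6954 in knockdown lysates. Markers of other cell types were low. The fibroblast markers summed to 2.94 to 4.20 CPM of RNA in controls and 2.03 to 3.85 in knockdown lysates. Of these, Thy1 ran from 1.06 to 3.38 CPM over the RNA libraries, and Col3a1, Postn and Lum had 0 counts. In footprints the fibroblast list summed higher, to 11.1 to 13.6 CPM in controls and 7.47 to 14.1 in knockdown lysates. The blood-cell markers gave 10.6 to 13.6 and 5.85 to 10.9 CPM of RNA, nearly all of it Cd68, with Lyz2 and Emr1 at 0. Their footprints summed to 18.3 to 23.3 CPM in controls and 10.9 to 17.6 in knockdown lysates. In RNA, endoderm markers summed to 1.56 to 2.10 and 1.25 to 1.58 CPM, trophectoderm markers to 21.1 to 22.6 and 15.4 to 18.1, and neural progenitor markers to 19.3 to 21.3 and 28.4 to 40.6, most of it Nes. The part of these shifts in the results below was not tested. The share of unique footprint alignments that fell on no gene was highest in siKrr1 C, at 63.3%, against 57.5% to 60.4% in the other libraries.

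The bases before the annotated start are shown for the 3 members with the lowest log2 fold changes in both assays, Cbr3, Nqo1 and Srxn1, and for Cbr1, the neighbour of Cbr3 that was not lower in its group mean. The RefSeq promoter windows (GRCm38.p6) covered 8 of the 10 members, and the 250 bases before each start were searched on both strands for an antioxidant response element core, TGACNNNGC, for a 9-base element of the AP-1 and MAF type, TGAGTCAGC, and for the GC box GGGCGG. None of these runs contains another. Other forms of these motifs and bases farther upstream were not searched. A missing match thus does not show that a gene lacks such an element. Matches to the first or second motif are in capitals, each sequence reads 5′ to 3′ along the gene's strand, and a match is only a match of letters.
Nqo1 (minus strand, chr8:107403206-107403455): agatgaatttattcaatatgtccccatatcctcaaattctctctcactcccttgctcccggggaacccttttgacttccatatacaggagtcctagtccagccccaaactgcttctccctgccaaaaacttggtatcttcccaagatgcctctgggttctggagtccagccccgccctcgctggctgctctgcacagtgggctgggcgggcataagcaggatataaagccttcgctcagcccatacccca
Cbr3 (plus strand, chr16:93682969-93683218): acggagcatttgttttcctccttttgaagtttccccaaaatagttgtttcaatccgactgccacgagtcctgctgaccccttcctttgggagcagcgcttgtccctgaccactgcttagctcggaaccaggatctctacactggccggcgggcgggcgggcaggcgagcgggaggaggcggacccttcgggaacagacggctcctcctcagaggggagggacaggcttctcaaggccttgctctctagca
Cbr1 (plus strand, chr16:93607587-93607836): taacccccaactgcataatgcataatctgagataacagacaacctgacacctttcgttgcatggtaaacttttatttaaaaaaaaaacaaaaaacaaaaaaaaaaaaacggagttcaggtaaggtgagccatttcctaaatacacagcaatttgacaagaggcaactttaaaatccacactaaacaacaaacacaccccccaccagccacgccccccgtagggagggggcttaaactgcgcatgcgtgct
Srxn1 (plus strand, chr2:152105274-152105523): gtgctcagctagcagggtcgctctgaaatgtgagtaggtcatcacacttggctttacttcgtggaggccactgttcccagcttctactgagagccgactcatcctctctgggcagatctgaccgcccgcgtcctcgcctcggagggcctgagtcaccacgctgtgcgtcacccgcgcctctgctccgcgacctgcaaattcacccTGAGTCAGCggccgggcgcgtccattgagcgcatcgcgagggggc
Srxn1 held TGAGTCAGC, starting 45 bases before its start site, a run present in 0.347% of all 32851 windows. The TGACNNNGC core, present in 10.2% of all windows, was in none of these 4 stretches. It was found in the windows of Nfe2l2, Gclm and 1 of the 3 start sites of Txnrd1, shown here with 10 bases on each side.
Nfe2l2 (minus strand, chr2:75704885-75704913): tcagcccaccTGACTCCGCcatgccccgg
Gclm (plus strand, match on the opposite strand, chr3:122245413-122245441): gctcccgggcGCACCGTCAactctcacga
Txnrd1 (plus strand, match on the opposite strand, chr10:82859104-82859132): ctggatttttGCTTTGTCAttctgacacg
The GC box, in 32.7% of all windows, was in 7 of the 8 members' windows, also in those of genes that differed little between groups: Nfe2l2 and Gclm had 3 matches each, Nqo1 and Cbr3 had 2 each (overlapping in Cbr3), Srxn1, Keap1 and Txnrd1 had 1 each, and Cbr1 had none. The 250 bases of Cbr3 were 59.6% G or C with 14 CpG steps, those of Cbr1 41.6% with 6, those of Nqo1 53.2% with 5 and those of Srxn1 63.2% with 21, against a median of 52.4% G or C over all windows.

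Nfe2l2 RNA was at 33.7, 33.9 and 36.5 CPM in siGFP, siNC and Lipo and at 24.6, 32.2 and 33.0 CPM in siKrr1 A, C and D. The groups did not overlap, but siKrr1 C and D lay just under the lowest control and siKrr1 A well under it. The log2 fold change of Nfe2l2 RNA was -0.21 ± 0.11 (SE, n = 3 per group), and -0.09 without siKrr1 A. Nfe2l2 footprints were at 119, 121 and 126 CPM in the controls and at 99.7, 109 and 102 CPM in siKrr1 A, C and D, a log2 fold change of -0.24 ± 0.06. In footprints all 3 knockdown lysates were clearly below the controls and close to one another. Keap1, the cysteine sensor, was at 54.0, 56.1 and 57.6 CPM of RNA in the controls and at 51.5, 52.3 and 50.6 CPM in siKrr1 A, C and D. Keap1 footprints were at 31.3, 31.5 and 31.4 CPM in controls and 28.8, 30.3 and 29.4 CPM in knockdown lysates. Again neither assay overlapped, with shifts in log2 of -0.12 ± 0.07 in RNA and -0.09 ± 0.07 in footprints, each under 2 SE.

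Nqo1 encodes a quinone reductase and is a standard readout of NRF2 activity. Its RNA was at 212, 222 and 221 CPM in siGFP, siNC and Lipo and at 101, 147 and 113 CPM in siKrr1 A, C and D. Its footprints were at 210.1, 208 and 203 CPM in the controls and at 90.6, 137 and 110.8 CPM in the knockdown lysates. Nqo1 was therefore lower with each of the 3 siRNAs and in both assays, least so in siKrr1 C. The mean was 55.0% ± 10.97 (SD, n = 3) of the control mean in RNA and 54.4% ± 11.2 in footprints, while the controls varied by 2.60% and 1.68% (SD). The log2 fold changes of Nqo1 were -0.86 ± 0.12 (SE) in RNA and -0.88 ± 0.12 in footprints.

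The 2 carbonyl reductase genes lie in the same orientation on chromosome 16 (GRCm38.p6), Cbr1 at 93607837 to 93610349 and Cbr3 at 93683219 to 93690991, with 72869 bases between them. Cbr3 RNA was at 44.3, 48.3 and 51.6 CPM in siGFP, siNC and Lipo and at 22.7, 27.7 and 22.2 CPM in siKrr1 A, C and D. Cbr3 footprints were at 45.6, 41.0 and 45.0 CPM in the controls and at 17.4, 28.2 and 20.9 CPM in the knockdown lysates. Cbr3 was thus at 50.3% ± 6.4 (SD, n = 3) of the control mean in RNA and 50.6% ± 12.5 in footprints, with the weakest shift in siKrr1 C, as for Nqo1. Its log2 fold changes, -0.99 ± 0.11 in RNA and -0.98 ± 0.14 in footprints, were the lowest among the members. Cbr1, the main cytosolic carbonyl reductase, was at 45.8, 48.6 and 45.5 CPM of RNA in the controls and at 60.1, 45.2 and 43.6 CPM in siKrr1 A, C and D. Its footprints were at 67.2, 65.2 and 63.0 CPM in the controls and at 83.3, 66.3 and 65.3 CPM in the knockdown lysates. Only siKrr1 A stood out for Cbr1, at 129% of the control mean in RNA and 128% in footprints, and the groups overlapped in both assays. The log2 fold change of Cbr1 was 0.09 ± 0.12 in RNA and 0.14 ± 0.09 in footprints, and -0.07 and 0.01 without siKrr1 A.

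The ratio of Cbr3 to Cbr1 counts, in which library size cancels, was 0.967, 0.994 and 1.13 in the control RNA libraries and 0.377, 0.613 and 0.509 in the knockdown libraries A, C and D. In footprints it was 0.679, 0.628 and 0.713 in the controls and 0.209, 0.425 and 0.320 in the knockdown lysates. The ratio was therefore lower in every knockdown lysate than in any control. Cbr1 and Cbr3 are paralogs and an annotated pseudogene, Gm5678, lies between them. Only uniquely aligned reads were counted, so how reads of shared stretches were treated makes the level of each uncertain. The flanking genes Setd4 and Dopey2, within 100000 bases of the pair and picked after the values were seen, stood at log2 fold changes of -4.00e-05 ± 0.12 and 0.07 ± 0.13 in RNA and at -0.02 ± 0.12 and 0.05 ± 0.10 in footprints (edgeR adjusted p = 0.9998 and 0.795 in RNA, 0.927 and 0.794 in footprints).

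**Figure D1:**
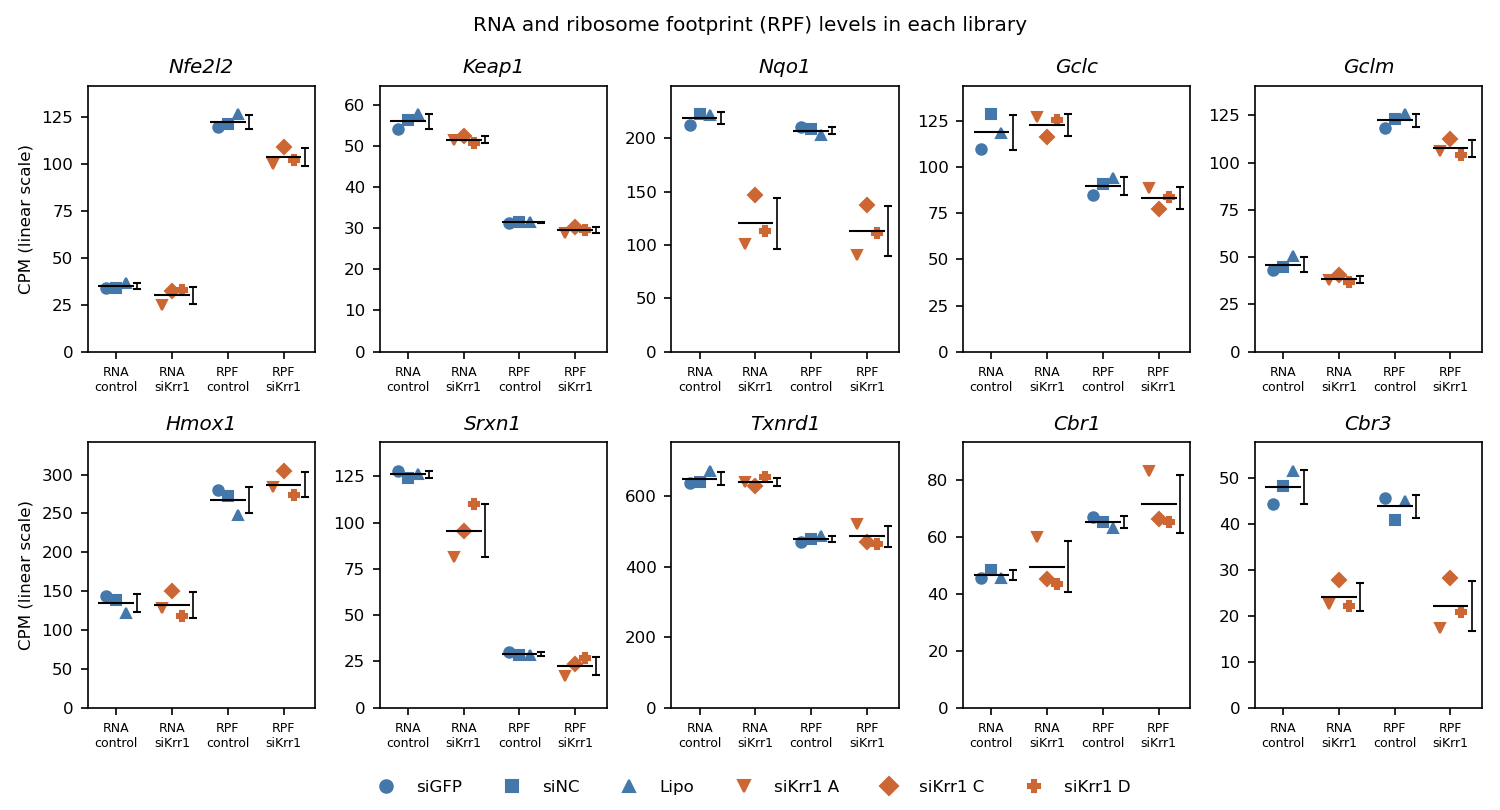
CPM of the 10 genes (linear axis from 0, separate for each gene) in the 3 control and 3 siKrr1 libraries of RNA and of footprints (RPF); symbols are single libraries, horizontal lines group means and bars 1 SD. Nqo1 and Cbr3 stand lower in all siKrr1 libraries of both assays, at 55.0% and 50.3% of the control mean in RNA, while Cbr1 is high in siKrr1 A alone.

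Glutathione synthesis starts with glutamate-cysteine ligase, made of the catalytic subunit Gclc and the modifier Gclm. Gclm RNA was at 43.2, 44.6 and 50.3 CPM in siGFP, siNC and Lipo and at 38.1, 40.4 and 36.7 CPM in siKrr1 A, C and D. Gclm footprints were at 118.5, 123 and 125.5 CPM in the controls and at 106, 112 and 104 CPM in the knockdown lysates. All 3 knockdown lysates were below the controls in both assays, with log2 fold changes of -0.26 ± 0.09 in RNA and -0.19 ± 0.06 in footprints. Gclc, in contrast, was at 109.8, 129 and 119 CPM of RNA in the controls and at 128, 116 and 126 CPM in siKrr1 A, C and D. Its footprints were at 84.8, 90.8 and 94.4 CPM and at 88.9, 77.5 and 83.7 CPM. The groups overlapped for Gclc in both assays, and its log2 fold change was 0.05 ± 0.08 in RNA and -0.11 ± 0.07 in footprints. Whether the 2 subunits differed in their change was not tested.

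Srxn1 encodes sulfiredoxin, which repairs over-oxidised peroxiredoxins. Its RNA was at 128, 124 and 126 CPM in siGFP, siNC and Lipo and at 81.3, 95.3 and 110.1 CPM in siKrr1 A, C and D. Its footprints were at 30.3, 28.3 and 28.8 CPM in the controls and at 17.3, 23.4 and 26.7 CPM in the knockdown lysates. Srxn1 was lower with every siRNA, but the size ranged from 64.5% of the control mean in siKrr1 A to 87.3% in siKrr1 D in RNA and from 59.5% to 91.6% in footprints. The log2 fold changes were -0.40 ± 0.10 in RNA and -0.37 ± 0.13 in footprints. Without siKrr1 A they were -0.30 and -0.22. Txnrd1, the selenoprotein that reduces thioredoxin, was at 637, 639 and 671 CPM of RNA in the controls and at 638, 627 and 652 CPM in siKrr1 A, C and D. Its footprints were at 469.5, 477 and 488 CPM and at 519.8, 470.2 and 465 CPM. Both assays overlapped for Txnrd1, and its log2 fold changes were within 1 SE of 0, at -0.02 ± 0.07 in RNA and 0.02 ± 0.06 in footprints.

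Hmox1 encodes haem oxygenase 1, which opens the haem ring and is raised by NRF2 when the repressor BACH1 is released. Its RNA was at 144, 138 and 122 CPM in siGFP, siNC and Lipo and at 128, 151 and 118 CPM in siKrr1 A, C and D. Its footprints were at 280.0, 273 and 248 CPM and at 283, 305 and 273 CPM. The groups overlapped in both assays, the lowest control being Lipo each time. The log2 fold change of Hmox1 was -0.03 ± 0.10 in RNA and 0.10 ± 0.06 in footprints.

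**Figure D2:**
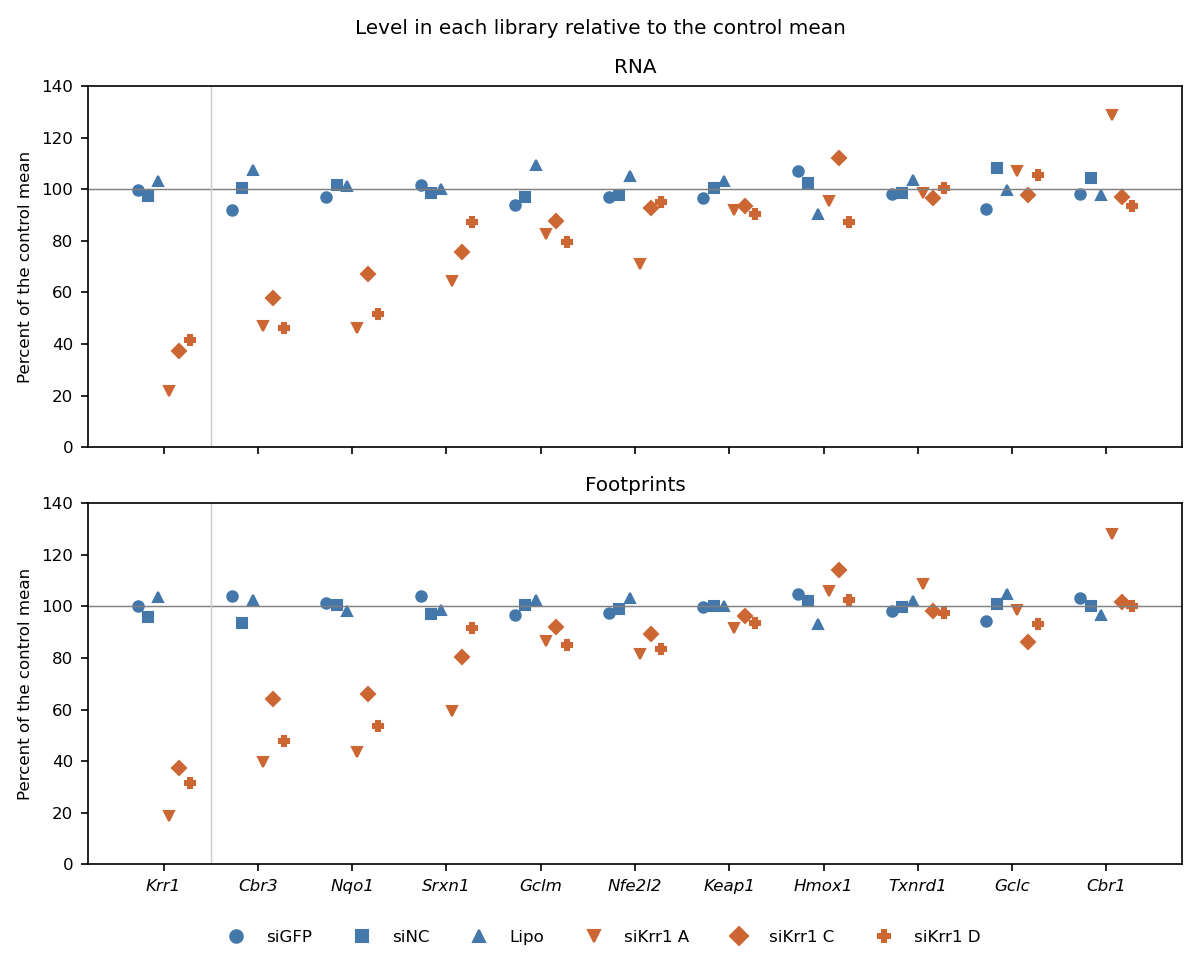
Level of Krr1 and the 10 genes in each library as a percentage of the control mean (linear axis), RNA above and footprints below; blue symbols are controls and orange symbols the 3 Krr1 siRNA lysates, and genes are ordered by their mean in siKrr1 RNA. Cbr3 and Nqo1 run between 39.8% and 67.3% of the control mean in the knockdown lysates, and siKrr1 A has Cbr1 at 129% in RNA.

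The 3 knockdown lysates did not weigh equally on the members. In RNA, siKrr1 A was the lowest of the 3 for Nfe2l2, Nqo1 and Srxn1 and the highest for Cbr1 and Gclc, and it had the least Krr1 RNA left, 21.7% of the control mean against 37.3% and 41.5% in siKrr1 C and D. For Cbr3 and Gclm, siKrr1 D was the lowest in RNA, at 46.2% and 79.7% of the control mean. With a single lysate per siRNA, these differences between siRNAs have no replicate.

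Read against all genes, the shifts of the members were as follows. In RNA, all 3 knockdown libraries lay below all controls for 6 of the 10 members (Nfe2l2, Keap1, Nqo1, Gclm, Srxn1 and Cbr3), and above them for none, where 13.4% of the 14038 genes tested lay below and 13.6% above (27.0% in either direction). In footprints the same 6 members lay below and none above, where 13.6% and 14.3% of 13287 genes did (27.9% in either direction). An edgeR quasi-likelihood fit over all genes, at a Benjamini-Hochberg adjusted p under 0.05, passed 3 members as lower in RNA (Nqo1, Srxn1 and Cbr3) and 3 in footprints (Nfe2l2, Nqo1 and Cbr3), and none as higher. The same threshold passed 2.11% of all genes as lower and 2.69% as higher in RNA (4.80% in all), and 2.68% and 3.39% in footprints (6.07% in all). Because the members were chosen with this contrast known, these counts support nothing beyond themselves. The median log2 fold change of the 10 members was -0.17 in RNA and -0.15 in footprints, beside 0.00 and 0.01 over all genes tested. With each library left out in turn, Nqo1 and Cbr3 passed in all 6 fits of both assays. Srxn1 passed in RNA only in the fit without siKrr1 D, with log2 fold changes of -0.30 (without siKrr1 A) to -0.51 (without siKrr1 D). Nfe2l2 passed in footprints only in the fit without siKrr1 C, with values of -0.21 to -0.28. Scaled to library totals without TMM factors, Srxn1 in RNA and Nfe2l2 in footprints no longer passed. All these refits use libraries by which the members were chosen, so passing in them is a description only.

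**Figure D3:**
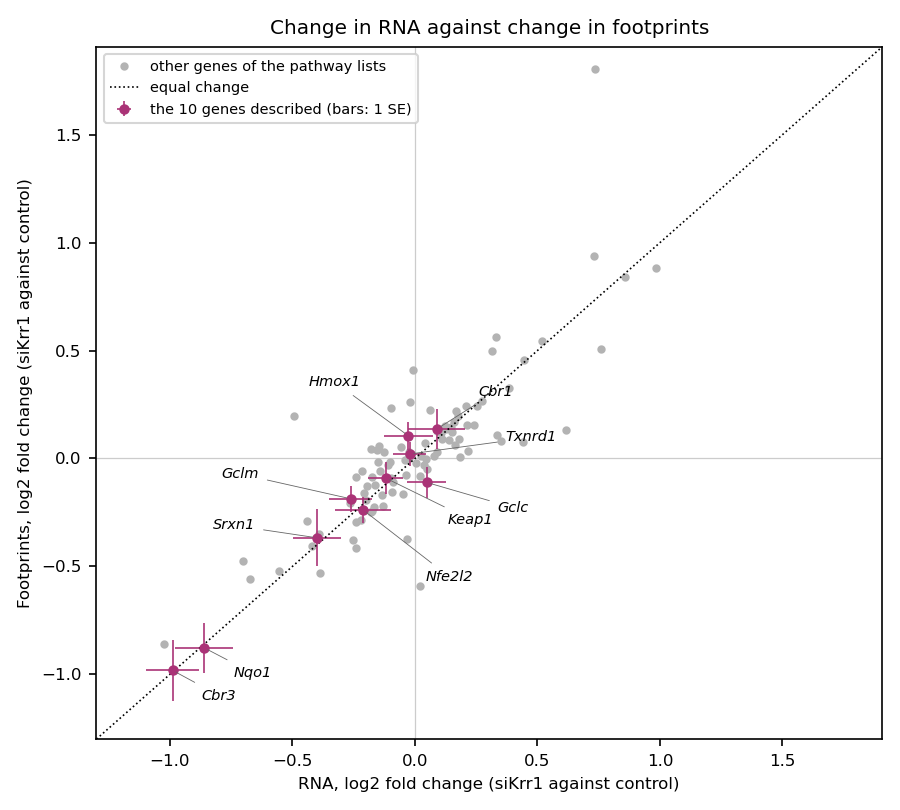
Log2 fold change in RNA (x axis) against that in footprints (y axis), siKrr1 against control, for the 10 genes (purple, bars 1 SE, n = 3 per group) and for the other genes of the pathway lists tested in both assays (grey); the dotted line marks equal change. Most of the 10 genes lie near the line, from Cbr3 at -0.99 and -0.98 to Cbr1 at 0.09 and 0.14. Gclc (0.05 and -0.11), Hmox1 (-0.03 and 0.10) and Txnrd1 (-0.02 and 0.02) have values of opposite sign in the assays, each within 2 SE of 0, so the sign itself is not a difference.

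The split lysates allowed the footprint level of each gene to be set against its RNA level, the ratio called translational efficiency. The choice of members did not use this ratio in control cells. In control cells it ran over a wide span: it was lowest for Srxn1, at 0.237, 0.228 and 0.228 footprint CPM per RNA CPM in siGFP, siNC and Lipo, and highest for Nfe2l2, at 3.55, 3.58 and 3.46. Over 10004 genes with at least 5 CPM of RNA in controls the median was 0.840 and the middle 90% ran from 0.246 to 2.49, so that Srxn1 stood at the 4.46 percentile and Nfe2l2 at the 97.8 percentile. Gclm, at 2.66, and Hmox1, at 1.98, stood at the 95.6 and 91.7 percentiles. Cbr1 (1.40), Nqo1 (0.948), Cbr3 (0.912), Gclc (0.755), Txnrd1 (0.737) and Keap1 (0.562) followed downward. In this order the control values of neighbouring genes overlapped only between Nqo1 and Cbr3 and between Gclc and Txnrd1. The factor thus had 6.28 times the ratio of its sensor Keap1, and Gclm 3.52 times that of its partner subunit Gclc. RNA reads cover whole transcripts and footprints mostly coding sequence, so the ratio of a gene also depends on the share of its mRNA that is untranslated, and no length was used here.

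The changes of these ratios on Krr1 depletion were all within 2 SE of 0 in the fit without a block. The change in log2 ratio (siKrr1 against control, interaction of assay and condition over the 12 libraries) ran from -0.16 ± 0.11 (SE) for Gclc to 0.13 ± 0.13 for Hmox1, and was -0.02 ± 0.19 for Nqo1, 0.01 ± 0.20 for Cbr3, 0.03 ± 0.18 for Srxn1 and -0.03 ± 0.13 for Nfe2l2. With the lysate as a block the error for Nqo1 was 0.06 and for Cbr3 0.11, at log2 ratio changes of -0.02 and -0.01, and Gclc (-0.16 ± 0.07) and Hmox1 (0.13 ± 0.06) stood over 2 SE from 0 in opposite directions. For Nqo1 and Cbr3 the lower footprint levels thus went with RNA levels lower by a similar factor. The Gclc ratio was 0.772, 0.705 and 0.794 in the controls and 0.697, 0.666 and 0.666 in the knockdown lysates, below every control by a small step. The Gclm ratio was 2.74, 2.76 and 2.49 in the controls and 2.78, 2.78 and 2.84 in the knockdown lysates, above every control. Gclc and Gclm were the members whose ratios did not overlap between groups, where 5.35% of 14236 genes lay below and 6.74% above (12.1% in either direction). The Nfe2l2 ratio differed among the siRNAs, from 4.05 with siKrr1 A to 3.39 with C and 3.10 with D, on both sides of the controls. No gene of the whole table passed an adjusted p of 0.05 in this edgeR interaction test, with 337 of 14236 at an unadjusted p under 0.05. This test leaves the pairing of libraries by lysate unused, and its errors for Nqo1 and Cbr3 were larger than with the block. Its lack of calls thus does not show that no ratio changed. DESeq2 passed 2 genes and the fit with the lysate as a block 6, no member among them.

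**Figure D4:**
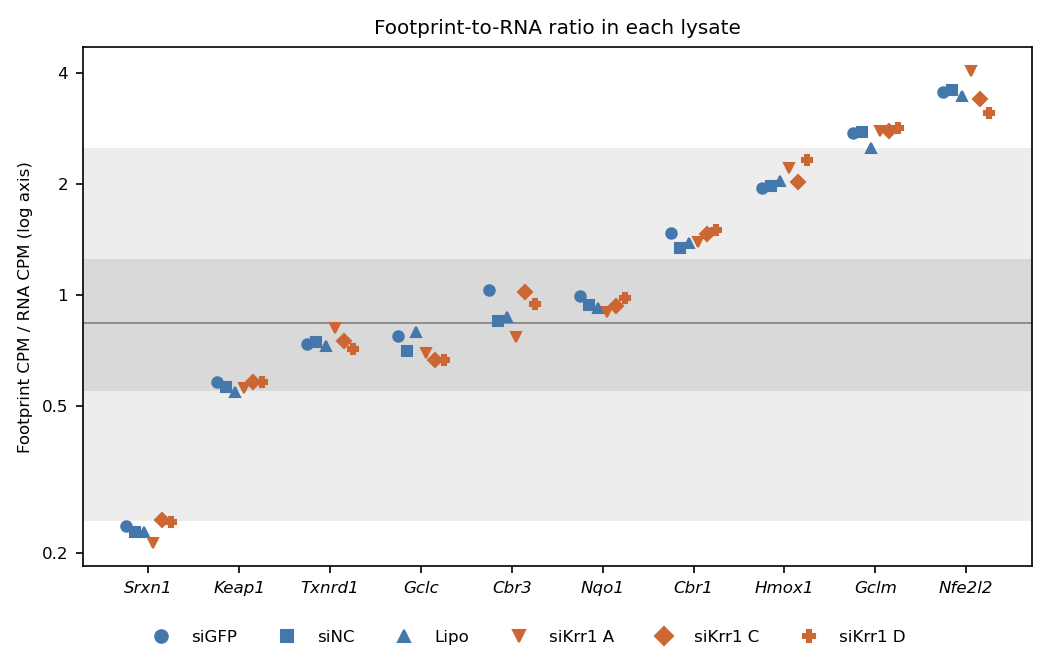
Footprint CPM divided by RNA CPM (log axis) in each of the 6 lysates for the 10 genes, ordered by the control mean; blue symbols are controls, orange symbols siKrr1. The line is the median of 10004 genes (0.840), the dark band their middle 50% and the light band their middle 90%; Srxn1 lies under the light band and Gclm and Nfe2l2 above it in every lysate, knockdown lysates beside controls.

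In all, 7 lists of further NRF2 partners and redox genes, 112 genes present in the tables and none of them a member, were read from the same fits. The lists too were chosen with earlier results of these data known. Their calls, adjusted p and refits below are thus a description of these libraries, not an independent test. In RNA 1 of 99 tested genes rose and 3 fell, and in footprints 3 of 94 rose and 6 fell (the same edgeR threshold, with p adjusted over all genes), against 2.69% and 2.11% of all genes in RNA and 3.39% and 2.68% in footprints. The unadjusted edgeR p was under 0.05 for 32 of these 99 genes in RNA and 31 of 94 in footprints. Over all genes tested it was so for 2937 of 14038 in RNA and 2984 of 13287 in footprints. The median log2 fold change of the lists together was -0.02 in RNA and 0.02 in footprints. Most genes of these lists were not called in either assay, which also held for most of all genes tested.

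Among 13 partners and regulators of NRF2, the haematopoietic relative Nfe2 fell in RNA, from 2.52 ± 0.0556 to 1.24 ± 0.183 CPM (SD, n = 3; log2 fold change -1.02 ± 0.22, edgeR adjusted p = 0.0268). Its call was kept only without siKrr1 C among the fits with a library left out, the edgeR adjusted p otherwise running from 0.0644 to 0.120. No partner was called in footprints (1 at an unadjusted p under 0.05), where Cul3, the ligase scaffold that binds KEAP1, stood at 0.01 ± 0.06 and Sqstm1, the autophagy adaptor that competes for KEAP1, at -0.01 ± 0.06. Nfe2 footprints stood at -0.86 ± 0.41.

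In the thioredoxin, peroxiredoxin and superoxide list, Txnip, the inhibitor of thioredoxin, rose in both assays: from 340.3 ± 17.8 to 487 ± 37.0 CPM in RNA (0.52 ± 0.08 in log2, edgeR adjusted p = 0.00732) and by 0.54 ± 0.06 in footprints (edgeR adjusted p = 0.00169). Sod2, the mitochondrial superoxide dismutase, fell from 388 ± 23.7 to 289.8 ± 30.1 CPM in RNA (-0.42 ± 0.09 in log2, edgeR adjusted p = 0.0238) and by 0.40 ± 0.06 in footprints (edgeR adjusted p = 0.00635). Mitochondrial thioredoxin, Txn2, fell by 0.24 ± 0.06 in footprints (edgeR adjusted p = 0.0369), with its RNA at -0.18 ± 0.09, not called. Of the 14 genes of this list tested, 1 rose and 1 fell in RNA, and 1 rose and 2 fell in footprints. Leaving out any single library ended neither Txnip call, nor that of Sod2 in footprints. The Sod2 call in RNA was lost without siGFP, siNC, Lipo or siKrr1 A (edgeR adjusted p = 0.0643, 0.0966, 0.110 and 0.0551). That of Txn2 was lost without siGFP, siNC, Lipo or siKrr1 D (edgeR adjusted p from 0.0853 to 0.145).

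Of 18 genes of glutathione supply and use, none was called in RNA (7 at an unadjusted p under 0.05), with the abundant peroxidase Gpx1 at -0.14 ± 0.07 and glutathione reductase Gsr at 0.05 ± 0.09. In footprints 3 fell and none rose: Gss, which completes glutathione synthesis, by 0.38 ± 0.07 (63.1 to 48.6 CPM), the ER peroxidase Gpx7 by 0.53 ± 0.13 and Ggt1, which breaks down extracellular glutathione, by 0.56 ± 0.14. The RNA of Gss, Gpx7 and Ggt1 stood at -0.25 ± 0.10, -0.39 ± 0.14 and -0.67 ± 0.18, lower too but not called. In footprints their edgeR adjusted p was 0.0119, 0.0411 and 0.0438. Without siNC or Lipo that of Gss was 0.0693 and 0.0878. The Gpx7 call was kept only without siKrr1 D (otherwise edgeR adjusted p from 0.0585 to 0.166) and that of Ggt1 only without siKrr1 C (otherwise from 0.0545 to 0.156). No glutathione S-transferase was called among 19 tested in RNA and 16 in footprints (unadjusted p under 0.05 for 4 and 3 of them), with Gsta4 at 0.11 ± 0.09 and 0.12 ± 0.05 and Gsto1 at 0.13 ± 0.09 and 0.14 ± 0.09. Close copies within the transferase families make their single values uncertain.

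None of 8 genes of NADPH supply was called in either assay (unadjusted p under 0.05 for 4 in RNA and for 3 in footprints). Transketolase Tkt stood at 0.02 ± 0.08 in RNA and -0.08 ± 0.06 in footprints, Taldo1 at 0.18 ± 0.08 in RNA and Pgd at -0.03 ± 0.05 in footprints. Among carbonyl, quinone and aldehyde enzymes, none of 18 was called in RNA (7 at an unadjusted p under 0.05), with the aldehyde reductase Akr1a1 at 0.25 ± 0.07 and Aldh2 at -0.21 ± 0.08. In footprints 2 of 16 rose and none fell, Akr1a1 by 0.25 ± 0.06 (346 to 410.4 CPM, edgeR adjusted p = 0.0427) and the epoxide hydrolase Ephx1 by 0.56 ± 0.15 (6.75 to 10.01 CPM, edgeR adjusted p = 0.0498). Ephx1 RNA stood at 0.33 ± 0.18, not called. Both footprint calls were kept only without siKrr1 C. Otherwise the edgeR adjusted p ran from 0.0842 to 0.198 for Akr1a1 and from 0.0677 to 0.189 for Ephx1. The mitochondrial carbonyl reductase Cbr4, named as kin of Cbr1 and Cbr3 after its values were seen, stood at 0.04 ± 0.16 in RNA and 0.07 ± 0.09 in footprints.

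In the list of haem and iron genes, Ftl1, the ferritin light chain, fell in RNA, from 701 ± 38.1 to 497 ± 102 CPM (-0.49 ± 0.12 in log2, edgeR adjusted p = 0.0437), a call kept only without siKrr1 C (otherwise edgeR adjusted p from 0.0768 to 0.171). Pir, the iron-binding protein pirin, fell in footprints from 79.7 ± 1.61 to 65.1 ± 3.88 CPM (-0.29 ± 0.07, edgeR adjusted p = 0.0283), a call lost without siGFP, siNC, Lipo or siKrr1 D (edgeR adjusted p from 0.0596 to 0.138). Ftl1 in RNA and Pir in footprints were each the single call among 9 tested genes of the assay. Ftl1 footprints stood at 0.19 ± 0.25 and Pir RNA at -0.24 ± 0.12.

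**Figure D5:**
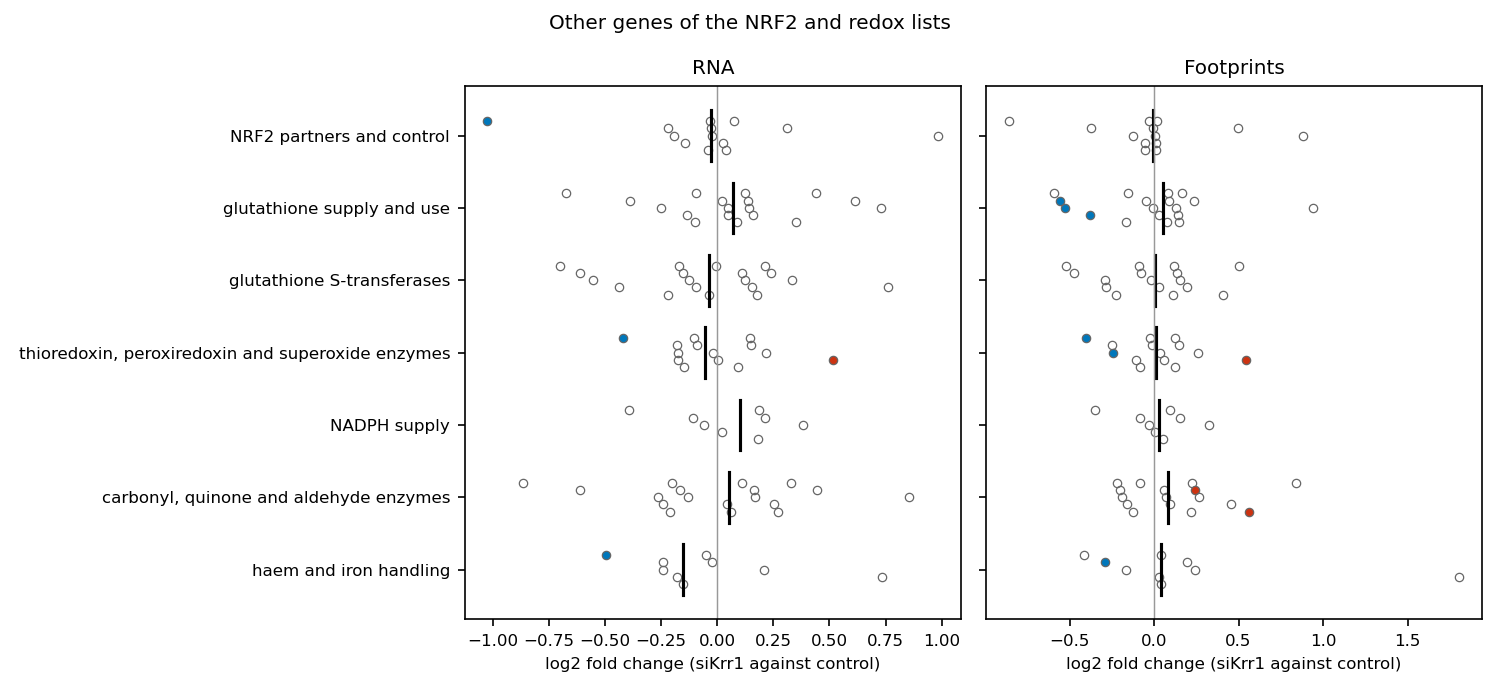
Log2 fold change (siKrr1 against control) of the genes of 7 further lists, RNA on the left and footprints on the right; circles are genes, filled red where called higher and blue where called lower (edgeR adjusted p under 0.05), and vertical bars are list medians. Of 99 genes tested in RNA 4 are filled, and of 94 in footprints 9.

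Cbr3 was the member with the largest RNA shift, and the genes whose RNA followed it most closely over the 6 RNA libraries were Tbx3, a T-box factor of naive pluripotency (Pearson r = 0.997), Eif4ebp1, a repressor of cap-dependent translation (0.995), Zfyve28 (0.995), Zcchc10 (0.995) and the apolipoprotein gene Apoe (0.994). Over the 6 footprint libraries r with Cbr3 was 0.980 for Tbx3, 0.814 for Eif4ebp1, 0.922 for Zfyve28, 0.955 for Zcchc10 and 0.954 for Apoe. The knockdown RNA level was 47.3% of the control mean for Tbx3, 86.4% for Eif4ebp1 and 51.0% for Apoe. The libraries form 2 groups, so r mainly reflects the step between them, and 157 of 10013 genes had r above 0.95 with Cbr3.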

How the data were processed

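RNA-seq (rRNA-depleted RNA, fragments of 40 to 60 nt) and footprints of about 30 nt were sequenced as 50-base single reads, per the labels' protocols. The deposited tables give raw read counts by gene symbol. STAR, HTSeq and the build mm10 are named in the submitters' processing notes; the sources used here give no versions, annotation or strand setting. Reads on no gene (31.2% to 33.4% of unique alignments in RNA, 57.5% to 63.3% in footprints) or on several genes were left out of library sizes. Knockdown columns carry letters that match no numbered title, so they were assigned to their group only. Genes were fitted with edgeR 4.0.16 (R 4.3.3, limma 3.58.1; filterByExpr, TMM, quasi-likelihood test, calls at an adjusted p under 0.05); the standard error is the log2 fold change over the root of F. Translational efficiency was tested as an assay-by-condition interaction over 12 libraries. Each lysate was divided between assays per the labels, and its deviations correlated between assays with r from 0.265 to 0.713 over 6117 genes, above those with other lysates of its condition. Alternatives were DESeq2 1.42.0, other scaling, no filter, a lysate block and leaving out each library. The code was tested on simulated data. No libraries were duplicates (chi-square per degree of freedom 3.88 to 27.2). Members and lists were chosen with earlier results of these data known. Named from each further list were up to 3 called genes per direction with the smallest adjusted p and at least 1 CPM, or the 2 most abundant where none was called; likeness was Pearson's r of log2 CPM (prior count 2) among genes of at least 5 CPM. Coordinates and promoter windows come from RefSeq tables (GRCm38.p6, the build also named mm10).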

Additional observations from a re-analysis of the deposited data

How the results depend on the processing

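The log2 fold changes of the members kept their direction in every alternative for Nfe2l2, Keap1, Nqo1, Gclm, Srxn1 and Cbr3 in both assays, and no called value reversed. Counts of calls depended on single libraries. With a library left out in turn, 63 to 759 genes were higher and 51 to 539 lower in RNA, and 67 to 791 and 64 to 546 in footprints. Members called lower numbered 2 to 3 in RNA and 2 to 3 in footprints. Of the further lists, 1 to 11 genes rose and 0 to 5 fell in RNA, and 1 to 10 rose and 1 to 6 fell in footprints; the control libraries siGFP, siNC and Lipo gave the lowest counts of all genes when left out, and siKrr1 C the highest. DESeq2 called 666 genes higher and 536 lower in RNA, against 378 and 296 with edgeR, and 7 list genes higher in RNA and 5 in footprints. Without a filter on low counts 582 genes were higher and 477 lower in RNA and 784 and 616 in footprints, against 450 and 356, with 7 list genes higher in each assay. Library totals in place of TMM factors gave 2 list genes higher in RNA and 6 in footprints, with 3 lower in footprints, and DESeq2 size factors 2 higher in RNA. In the replicate block fit of translational efficiency 5 genes were higher (Dync1h1, Mir1949, Polr2a, Snora7a and Zbtb7c) and 1 lower (Rab6a), against 0 without the block (337 at an unadjusted edgeR p under 0.05). DESeq2 and the fit without a filter each called 2 higher (Mir1949 and Zbtb7c), and leaving out a lysate 0 to 1 (Zbtb7c without siKrr1 A). These were named after their values were seen, and the cause of these differences was not tested. The block changed no call of a member. The lowest count of a member in any library was 376 reads (Srxn1 footprints, siKrr1 A).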

Other observations

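Some antioxidant genes were hardly or not detected in these cells, and were left out of the tests by the filter on low counts (13 of 112 list genes in RNA and 18 in footprints). Slc7a11, the cystine importer that NRF2 and ATF4 are known to raise, had 4, 9 and 8 RNA reads in the controls and 5, 3 and 6 in the knockdown lysates. Slc7a11 RNA thus overlapped between groups. It had 6, 9 and 7 footprint reads in the controls and 0, 2 and 1 in the knockdown lysates, which lay below all controls. Of the genes tested in footprints, 13.6% lay below and 14.3% above. Among the other list genes left out of an assay, Gstm6 footprints lay below all controls. Akr1c14 RNA lay above them, with 0, 0 and 0 reads in controls and 1, 3 and 9 in knockdown lysates. These shifts were picked after the values were seen and were not tested. The carbonyl reductase Cbr2 had 0 reads in all 12 libraries, which allows at most 0.0769 to 0.0964 CPM of RNA per library (3 reads, counting error only).

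Ftl1 had 701 CPM of RNA but 12.7 ± 1.75 CPM of footprints in controls, a ratio of 0.0182, and its log2 ratio change was 0.69 ± 0.31 (edgeR adjusted p = 0.9999). The ferritin light chain has many pseudogene copies, and only uniquely aligned reads were counted, so this level is uncertain. Slc40a1, the iron exporter ferroportin, had the largest footprint log2 fold change of the further lists, 1.81 ± 0.67, from 0.193 ± 0.171 to 0.693 ± 0.3998 CPM (SD, n = 3; edgeR adjusted p = 0.138). It was picked after its values were seen. Its control level was near the floor of 3 reads, 0.136, 0.108 and 0.122 CPM in siGFP, siNC and Lipo footprints. Only the knockdown libraries carried it past the filter on low counts, so its rank and size of change show nothing further.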
